A study of Mus musculus with 6 samples.

Results

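The 7 genes described here are genes of Schwann cells and myelin measured in the vestibular sensory epithelium of mice, and were chosen by symbol: Mbp, Pmp22, Mag, Prx, Sox10, Mal and Cnp. All 7 were found among the 52636 genes of the table, and all 7 were tested. RNA-seq compared 3 Control mice, which drank plain water, with 3 mice exposed for 8 weeks to 30 mM 3,3'-iminodipropionitrile (IDPN) in the drinking water. IDPN is a nitrile that damages the hair cells (HCs) of the inner ear. All animals were male 129S1/SvImJ mice aged 2 to 4 months, and each library came from the 2 utricles and 6 cristae of 1 animal. The 3 Control animals carry a common stem in their title codes that no IDPN animal has, so an effect of that stem cannot be told apart from that of IDPN.

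Myelin is the stack of glial membrane that insulates axons. In peripheral nerve it is made by Schwann cells, and in the inner ear it covers the fibres that lead from the vestibular ganglion to the base of the sensory epithelium, where the fibres lose their sheath before they contact the HCs. Mbp (myelin basic protein) holds the cytoplasmic faces of the membrane together, Pmp22 (peripheral myelin protein) spans the compact layers, and Mal is a proteolipid that sorts membrane to them. Cnp, Mag and Prx belong to the parts of the sheath that are not compacted: Cnp is a phosphodiesterase of the cytoplasmic channels, Mag is an adhesion molecule that faces the axon, and Prx (periaxin) links the outer membrane to the basal lamina. Sox10 is the transcription factor that specifies Schwann cells and switches on their myelin genes. It is also expressed in pigment cells and in the supporting cells of the inner ear epithelium, and Pmp22 and Mal are found in many epithelia.

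The 6 libraries held between 40474847 and 43566332 estimated counts, and size factors ran from 0.825 to 1.21. The 7 genes took 0.274% to 0.478% of all counts, with the highest share in Control 1. Library pairs of 1 group differed by 37.3 to 145 times the sampling noise (chi-square per degree of freedom), so no library was a copy of another. Over all genes the DESeq2 test called 410 upregulated and 604 downregulated. Scaling by total counts turned this split to 609 and 214, and shifted the median log2-Fold_Change of all genes by 0.25. In a bulk tissue sample, fewer cells of a type and less RNA per cell cannot be told apart.

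Compared per length, as TPM (transcripts scaled for length and depth), Pmp22 was the most abundant of the 7, with a mean of 1196 TPM over the 6 libraries. It was followed by Mbp at 312 TPM, Cnp at 243, Mal at 206, Sox10 at 64.8, Prx at 36.2 and Mag at 9.32. The lowest library for Pmp22 lay above the highest for Mbp, and the same held for Mal above Sox10 and for Prx above Mag. The other neighbours in this order overlapped between libraries. These lengths join all annotated exons of a gene, which for Mbp came to 8469 bases, so genes with long or alternative exons are placed too low.

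The label of the genes was set against other glial genes. S100b, a calcium-binding protein of Schwann cells that supporting cells of the inner ear also express, lay between 2829 and 5676 TPM. Foxd3, a factor of the glial lineage, did not exceed 7.45 normalized counts in any library. Other genes of the core Schwann list were present in every library, with 1687 to 2549 normalized counts for Ednrb and 934 to 1464 for Erbb3. Cdh19 (262 to 693) and Dhh (271 to 722) were present at lower counts. Of 10 oligodendrocyte genes, the 4 defining ones Mog, Opalin, Olig2 and Klk6 were at 0 in every library. The genes are therefore named here by their known products, and the data do not assign their RNA to 1 cell type.

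**Figure D1:**
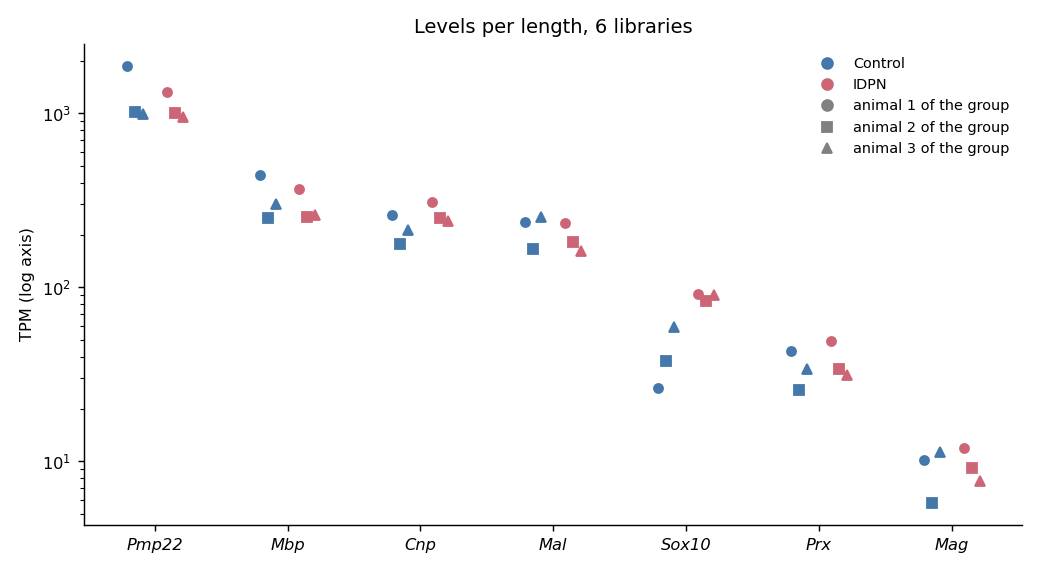
Levels per length (TPM, log axis) of the 7 genes, ordered by mean, with 1 point per library (blue for Control, red for IDPN). Pmp22 stood above the other genes in every library, and Sox10 separated by group (26.3 to 59.2 TPM in Control and 83.4 to 92.1 in IDPN).

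Of the 7 genes only Sox10 passed the test, and it was upregulated. Its normalized counts, given here and throughout in the order of animals 1 to 3, were 1938, 2625 and 3073 for Control, against 4025, 4752 and 4562 for IDPN. Every IDPN library lay above every Control library. The log2-Fold_Change was 0.80 ± 0.19 (SE), a 1.75-fold rise with a 95% interval of 1.35 to 2.26 (DESeq2 Padj = 0.00108). Sox10 (ENSMUSG00000033006.9) lies on the minus strand of chromosome 15, at 79154908 to 79165240 of GRCm38, and shares no exon with another annotated gene. The edgeR quasi-likelihood test also called it (log2-Fold_Change 0.81, adjusted p = 0.0464), and it was called with any single library left out, with a log2-Fold_Change between 0.64 and 0.96.

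This call of 1 upregulated gene among 7 stands beside 2.32% of the 17650 genes tested that were called upregulated, and beside 1.02% by edgeR. Scaling by total counts gave Sox10 a log2-Fold_Change of 1.02 (DESeq2 Padj = 0.00490), where 3.64% of genes were called upregulated. Libraries without overlap were also common in the whole table, as 11.1% of genes had every IDPN library above every Control library and 11.4% had every IDPN library below.

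None of the 6 myelin protein genes was called in either direction. The compact myelin genes Mbp, Pmp22 and Mal had the lowest log2-Fold_Changes, while those of Cnp, Mag and Prx lay nearer to 0. DESeq2 and edgeR both called 0 of the 7 genes downregulated, beside 3.42% and 2.19% of all genes. At an unadjusted p under 0.05, DESeq2 gave 3 lower genes (Mbp, Pmp22 and Mal) and edgeR gave 1, where 9.15% and 9.12% of all genes lay lower.

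Mal came closest. Its normalized counts were 16014, 10502 and 11969 for Control, against 9326, 9411 and 7486 for IDPN. The groups did not overlap. The log2-Fold_Change was −0.55 ± 0.19 (SE), or 0.681 of the Control level with a 95% interval of 0.527 to 0.881 (DESeq2 Padj = 0.0531, edgeR adjusted p = 0.183). Mal (ENSMUSG00000027375.14) occupies the minus strand of chromosome 2 from 127633226 to 127656695. On the TPM scale, where size factors play no part, its Control range of 165 to 253 overlapped its IDPN range of 163 to 234. That scale fixes the total of each library, and total-count scaling raised the median log2-Fold_Change of all genes tested by 0.25.

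Mbp (ENSMUSG00000041607.16) had normalized counts of 90760, 48177 and 43631 for Control, against 44319, 39877 and 36657 for IDPN. Control 1 stood far above the rest, and Control 3 lay below IDPN 1. This gave a log2-Fold_Change of −0.60 with an SE of 0.24 (DESeq2 Padj = 0.134). The gene also gives rise to golli transcripts outside myelin, which gene-level counts do not separate.

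Pmp22 had normalized counts of 106520, 54654 and 39914 for Control, against 44681, 44408 and 37252 for IDPN. Control 1 was again highest, and Control 3 lay inside the IDPN range. This gave a log2-Fold_Change of −0.67 with an SE of 0.27 (DESeq2 Padj = 0.136). Pmp22 (ENSMUSG00000018217.12) is on the plus strand of chromosome 11 from 63128982 to 63159547.

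The 3 genes of non-compact myelin overlapped between groups. Cnp had normalized counts of 22962, 14846 and 13277 for Control, against 16220, 16998 and 14544 for IDPN, and the log2-Fold_Change was −0.10 with an SE of 0.21 (DESeq2 Padj = 0.888). Mag had 1002, 536 and 778 for Control, against 692, 696 and 522 for IDPN, and a log2-Fold_Change of −0.28 with an SE of 0.24 (DESeq2 Padj = 0.631). Prx had 5797, 3280 and 3202 for Control, against 3932, 3543 and 2887 for IDPN, and a log2-Fold_Change of −0.24 with an SE of 0.23 (DESeq2 Padj = 0.675). In each of the 3 the highest library was Control 1, and Control 2 or Control 3 lay within or below the IDPN range. The 95% intervals of the fold reached from 0.707 to 1.24 for Cnp, 0.596 to 1.14 for Mag and 0.616 to 1.16 for Prx, so moderate changes in either direction were not detectable with these libraries.

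Cnp (ENSMUSG00000006782.16, chromosome 11, 100574904 to 100591729, plus strand) shares 154 exon bases with the oppositely transcribed Dnajc7. Prx (ENSMUSG00000053198.13, chromosome 7, 27499324 to 27520214, plus strand) shares 300 with the antisense Gm15541, which had at most 40.2 normalized counts. Mag (ENSMUSG00000036634.15, chromosome 7, 30899176 to 30914873, minus strand) shares none. The library protocol as described does not mark strand, so reads in the shared bases cannot be told apart.

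**Figure D2:**
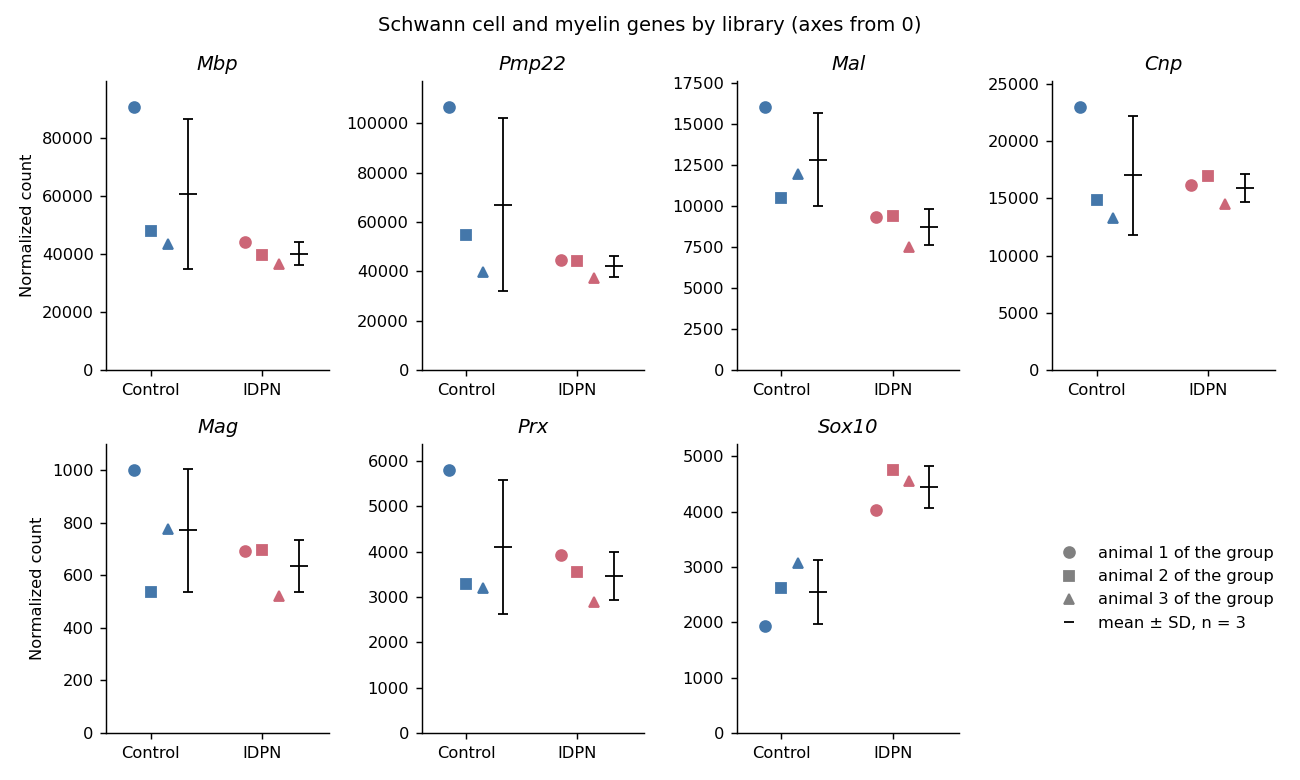
Normalized counts of the 7 genes in each library, with axes from 0, 1 point per animal and the mean ± SD of each group of 3 beside the points. Control 1 (blue circle) was the highest library for all 6 myelin protein genes and the lowest for Sox10, which is the only gene with all IDPN animals above all Control animals.

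Control 1 set much of the difference in the myelin protein genes. It was the highest library for all 6 of them, at 1.45 (Mag) to 2.40 (Pmp22) times the median of the other 5 libraries, and the lowest for Sox10, at 0.482 times. Without Control 1, the log2-Fold_Change was −0.19 for Mbp, −0.17 for Pmp22, −0.05 for Mag and −0.37 for Mal, and it turned to 0.09 for Prx and 0.17 for Cnp. None of these 6 was called (DESeq2 Padj from 0.365 to 0.975). Sox10 remained called at 0.64 (DESeq2 Padj = 0.0131).

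Leaving out another Control library moved the genes the opposite way. Without Control 3, Mbp (−0.79, DESeq2 Padj = 0.0182), Pmp22 (−0.94, 0.00414) and Mal (−0.60, 0.0434) were called downregulated, where 4.5% of all genes were. Without Control 2, Mal alone was (−0.68, DESeq2 Padj = 0.0318), where 2.52% were. The calls for the compact myelin genes thus depended on which Control animals entered the fit, whereas the values of Mbp, Pmp22, Mal and Mag stayed below 0 under all 13 alternatives. Under total-count scaling the values of Cnp (0.19) and Prx (0.05) turned above 0, but stayed below the median shift of all genes under that scaling.

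**Figure D3:**
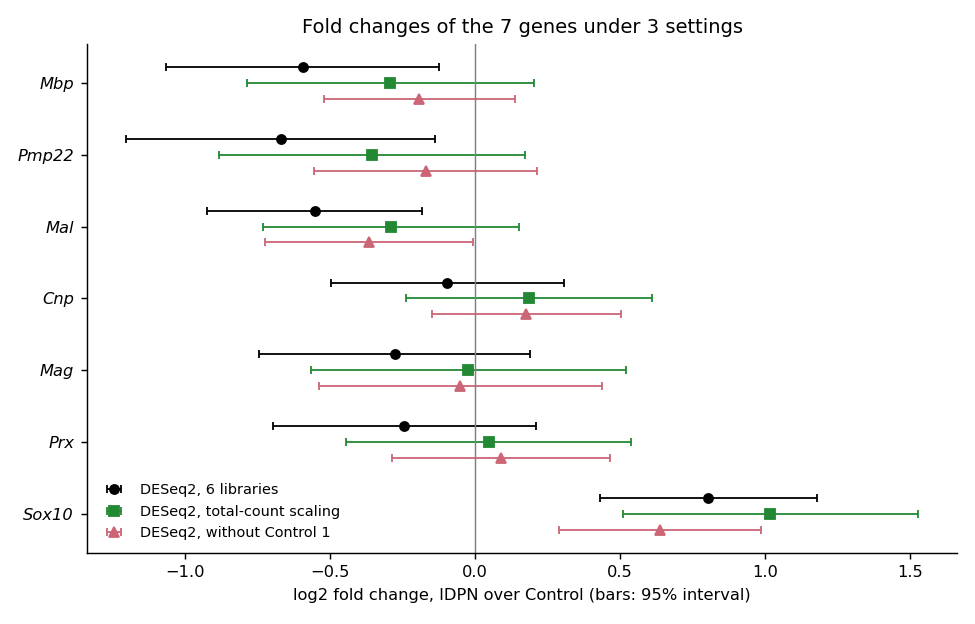
The log2 fold change of each gene (IDPN over Control, DESeq2) with its 95% interval, from all 6 libraries (black circles), with total-count scaling (green squares) and without Control 1 (red triangles). The interval of Sox10 lay above 0 under all 3 settings, those of Cnp, Mag and Prx crossed 0 under all 3, and those of Mbp and Pmp22 crossed 0 except with all 6 libraries under the default scaling.

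The 6 myelin protein genes varied together. Over the 6 libraries, Pearson's r between pairs of them on the log2 scale ran from 0.61 to 0.98 (15 pairs). Mbp with Pmp22 gave the highest value, 0.98. Without Control 1 the range became −0.37 to 0.81, so much of the joint variation was that of 1 library. Sox10 ran against the 6, with r from −0.89 (Mal) to −0.50 (Cnp), and without Control 1 from −0.84 (Mbp) to 0.58 (Cnp). The libraries share the dissection, the depth and the groups, and these correlations are descriptive.

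Summed over the 7 genes, normalized counts were 165153 ± 69779 (SD, n = 3) in Control and 115596 ± 10272 in IDPN, a ratio of 0.700 that was smaller than the spread between Control animals (two-sided exact permutation p = 0.30). The difference of −30.0% of the Control mean shrank to −7.69% without Control 1 and lay between −39.1% and −26.5% with any other library left out. No two-sided exact permutation test of 3 against 3 libraries can give p under 0.10. As a share of all counts, the sum had a ratio of 0.861 (exact permutation p = 0.60).

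Ratios within a library do not depend on its size factor. The log2 ratio of Mbp, Mag and Prx together to 12 neuronal and axonal genes was 3.15 ± 0.52 (SD, n = 3) in Control and 3.15 ± 0.12 in IDPN (two-sided exact permutation p = 1). Mbp made up most of the sum of the 3 genes, with a Control mean of 60856 normalized counts against 4093 for Prx and 772 for Mag. The genes of the neuronal and axonal list were themselves not level. Of 10 tested, 4 were called downregulated (Nefl, Nefm, Snap25 and Syt1) and 1 upregulated (Scn9a), beside 3.42% and 2.32% of all genes. Nefl alone had 1936 to 3213 normalized counts, whereas Tubb3, Stmn2, Thy1 and Nefh did not exceed 18.2 in any library. Whether the RNA of this list came from axons was not tested. The log2 ratio to 10 core Schwann genes was −1.52 ± 0.45 in Control and −1.16 ± 0.20 in IDPN (exact permutation p = 0.20). That list was dominated by S100b, which was downregulated (log2-Fold_Change −0.97 ± 0.21 SE, DESeq2 Padj = 0.000156) but not called by edgeR (adjusted p = 0.0844). Without S100b the difference turned from 0.35 to −0.21 (exact permutation p = 0.30).

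Sox10 was also set against genes it is known to activate. The log2 ratio of Sox10 to the sum of Mbp, Mag and Prx was −5.65, −4.31 and −3.95 for Control, against −3.60, −3.21 and −3.13 for IDPN. The groups did not overlap, and the difference was 1.32 (two-sided exact permutation p = 0.10, the smallest possible here). Against single genes the difference was 0.89 for Cnp, 1.07 for Mag and 1.03 for Prx, each without overlap and with the same p. The counts of the summed genes were mostly those of Mbp, and without Control 1 the difference from this sum was 0.81. This ratio was chosen after the values of Sox10 had been seen, so its direction is not separate from them.

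**Figure D4:**
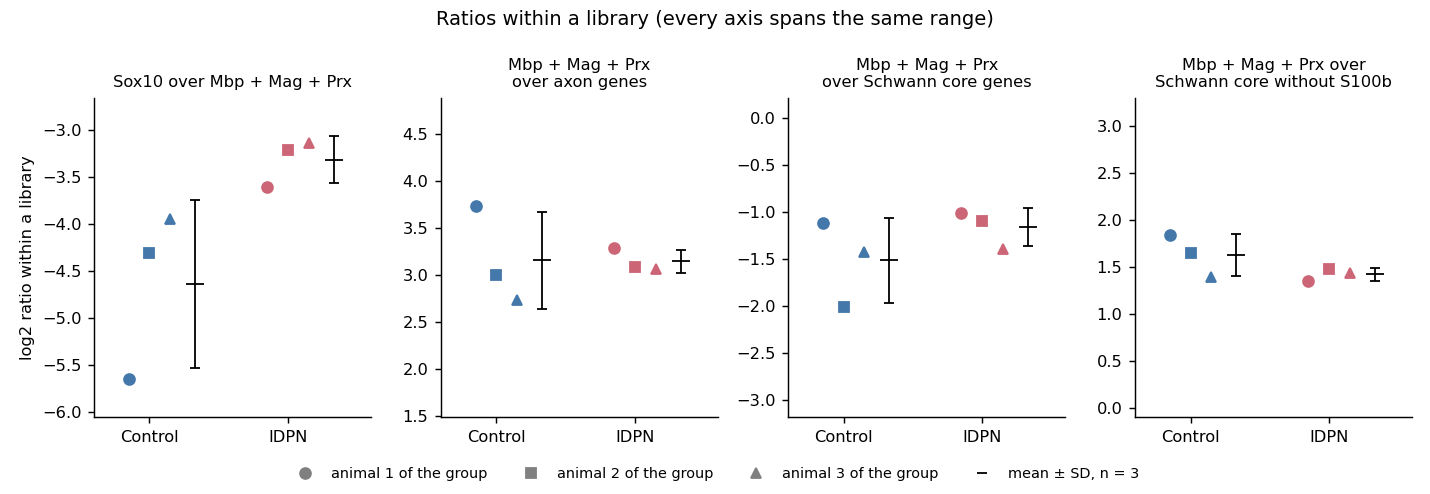
Log2 ratios within each library, 1 point per animal with the mean ± SD of 3, on axes that span the same range. Sox10 over Mbp, Mag and Prx separated the groups (means −4.64 in Control and −3.32 in IDPN), whereas the other ratios overlapped between them.

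The makeup of the 6 myelin protein transcripts was also compared, as the share of each in their summed TPM. Cnp took 10.6% ± 1.39 (SD, n = 3) in Control and 14.2% ± 0.537 in IDPN, without overlap (two-sided exact permutation p = 0.10). Prx took 1.64% ± 0.193 and 1.99% ± 0.133, also without overlap (p = 0.10 by the same exact test). The shares of Mbp, Pmp22, Mag and Mal overlapped between the groups, and Pmp22 held 55.0% to 65.3% of the sum in every library. Shares that add to a whole are not independent of each other.

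SOX proteins bind short DNA motifs, and the sequence before the start sites of the genes was searched for the letters ACAAAG and AACAAT on both strands. RefSeq promoters (GRCm38.p6) matched 5 of the 7 genes, with 10 windows of 250 bases before a start, and 3 of the windows (2 of the 3 at Mag, which overlap and share the match, and the 1 at Cnp) held a match. Over all 32817 promoter windows, 16.5% held ACAAAG, 9.42% AACAAT and 24.0% either. The windows of Prx, Mal and Pmp22 held neither. The most upstream windows of Mag and Cnp are shown because they carry the match, and that of Pmp22, the most abundant of the genes, as a window without one. Each runs 5′ to 3′ along the gene's strand, with the match in capitals. The Mag window is chr7:30914923-30915172 (minus strand), with the match at 67 to 62 bases before the start. The Cnp window is chr11:100574689-100574903 (plus strand, ended at the annotated gene start), with the match at 167 to 162 bases before the RefSeq start. The Pmp22 window is chr11:63128732-63128981 (plus strand).
Mag: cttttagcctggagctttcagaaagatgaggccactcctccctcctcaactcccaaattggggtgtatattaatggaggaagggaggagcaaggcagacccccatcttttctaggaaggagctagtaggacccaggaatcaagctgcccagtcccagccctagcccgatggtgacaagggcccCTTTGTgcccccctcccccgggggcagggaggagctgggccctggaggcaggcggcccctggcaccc
Cnp: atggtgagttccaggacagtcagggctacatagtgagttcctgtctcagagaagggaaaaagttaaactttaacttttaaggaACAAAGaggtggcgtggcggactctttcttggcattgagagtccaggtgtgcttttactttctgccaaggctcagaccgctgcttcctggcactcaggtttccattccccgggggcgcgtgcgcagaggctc
Pmp22: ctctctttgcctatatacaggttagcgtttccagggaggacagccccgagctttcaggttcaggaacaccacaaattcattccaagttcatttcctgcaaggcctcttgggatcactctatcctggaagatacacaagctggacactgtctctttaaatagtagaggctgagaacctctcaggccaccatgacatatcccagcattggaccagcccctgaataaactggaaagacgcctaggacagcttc
A match of 6 letters is a description of the sequence and not a binding site. Mag and Cnp, which hold it, and Prx, which does not, had log2-Fold_Changes of −0.28, −0.10 and −0.24.

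Around the 7 genes, 85 other genes of myelination were grouped into 7 lists by role, of which 79 were tested. The DESeq2 test called 1 upregulated and 4 downregulated, beside 2.32% and 3.42% of all genes, and the median log2-Fold_Change was −0.04 beside 0.02 over all genes tested. The edgeR test called 0 and 2 (Adam22 and Utrn), beside 1.02% and 2.19%. Under total-count scaling 3 were called upregulated (Erbb3, Gjc3 and Itga6) and 0 downregulated, where 3.64% and 1.28% of all genes were. At an unadjusted DESeq2 p under 0.05, 6 lay higher and 11 lower, where 7.77% and 9.15% of all genes did.

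Among 8 other compact myelin genes none was called by DESeq2 or edgeR. At an unadjusted p under 0.05, 2 lay lower, and the median log2-Fold_Change was −0.35, with 6 of 8 values below 0.

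Of 11 tested genes of non-compact myelin and the axon-glia junction, 1 was called. Gjc3, a connexin of glial gap junctions, had normalized counts of 255, 215 and 214 for Control, against 369, 333 and 417 for IDPN. It was upregulated without overlap (log2-Fold_Change 0.71 ± 0.21 SE, DESeq2 Padj = 0.0198), but edgeR did not call it (adjusted p = 0.0559). Gjb1, the connexin of Schwann cell channels across the sheath, was not called (0.42, DESeq2 Padj = 0.405).

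Of 10 genes that tie the sheath to the basal lamina, among them the partners of periaxin, 1 was called. Utrn (utrophin), a cytoskeletal linker of the dystroglycan complex, had normalized counts of 2236, 2302 and 2123 for Control, against 1597, 1410 and 1363 for IDPN. It was downregulated (log2-Fold_Change −0.61 ± 0.15 SE, DESeq2 Padj = 0.00282). Drp2, the dystrophin-related partner that binds Prx directly, was not called (−0.22, DESeq2 Padj = 0.682).

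Of 11 tested transcriptional regulators, 1 was called. Sox8, a close relative of Sox10, had normalized counts of 3108, 2738 and 2065 for Control, against 1682, 1809 and 1421 for IDPN, so that it fell while Sox10 rose (log2-Fold_Change −0.69 ± 0.19 SE, DESeq2 Padj = 0.00930). The edgeR test did not call it (adjusted p = 0.0614). It shares 329 exon bases with the oppositely transcribed 2810468N07Rik. Egr2 (Krox20), the partner of Sox10 at myelin genes, had normalized counts of 632, 507 and 502 for Control, against 902, 3697 and 793 for IDPN, without overlap but not called (log2-Fold_Change 1.72, DESeq2 Padj = 0.154). IDPN 2 set much of its size, as the log2-Fold_Change without that library was 0.63 (DESeq2 Padj = 0.0502). Pou3f1, which acts before Egr2, was low, with at most 85.9 normalized counts (DESeq2 Padj = 0.327).

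Of 10 genes of axonal signals and their glial receptors, 1 was called. Adam22, a receptor for LGI proteins, was downregulated, with normalized counts of 661, 712 and 783 for Control, against 473, 329 and 370 for IDPN (log2-Fold_Change −0.88 ± 0.20 SE, DESeq2 Padj = 0.000700). Erbb3, the neuregulin receptor of Schwann cells, had 1069, 987 and 934 for Control, against 1289, 1464 and 1342 for IDPN, without overlap but not called (0.45, DESeq2 Padj = 0.0653).

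Of 20 genes of myelin lipid synthesis none was called by DESeq2 or edgeR, none had an unadjusted p under 0.05, and the median log2-Fold_Change was −0.04. Ugt8a, which makes the galactolipids of myelin, was at −0.25 (DESeq2 Padj = 0.673). Of 9 tested genes of immature or repair Schwann cells, 1 was called. Fabp7, a fatty acid binding protein, had normalized counts of 1201, 771 and 1336 for Control, against 786, 696 and 373 for IDPN, with overlap between the groups (log2-Fold_Change −0.83 ± 0.27 SE, DESeq2 Padj = 0.0405, edgeR adjusted p = 0.157). Ngfr, the neurotrophin receptor of immature Schwann cells, had at most 74.3 normalized counts (DESeq2 Padj = 0.812).

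**Figure D5:**
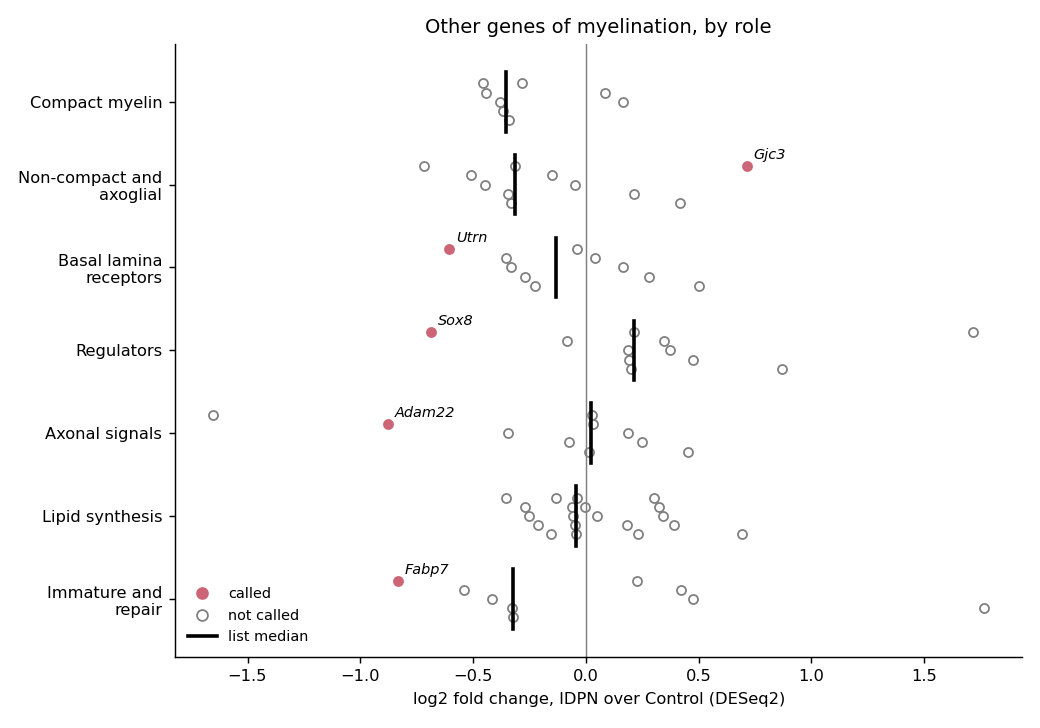
The log2 fold change (IDPN over Control, DESeq2) of each tested gene of the 7 lists of other myelination genes, with 1 circle per gene, called genes filled and named, and the list median as a black bar. Called genes were Gjc3 above 0 and Utrn, Sox8, Adam22 and Fabp7 below 0, and the list medians lay between −0.35 (compact myelin) and 0.21 (regulators).

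Marker lists of other cell types were summed in each library, on the TPM scale and as normalized counts. The melanocyte list was higher in IDPN on both scales: 9 genes summed to 117 to 172 TPM in Control and 217 to 377 in IDPN, and to 6858 to 15132 and 15320 to 23535 normalized counts. All 9 had a log2-Fold_Change above 0 (median 0.54), but 0 were called by DESeq2 or edgeR, and none was at 0. At an unadjusted DESeq2 p under 0.05, 5 lay higher, beside 7.77% of all genes. Under total-count scaling 4 were called upregulated, beside 3.64%. HC and supporting cell lists were lower on both scales. The 11 HC genes summed to 303 to 396 TPM in Control and 184 to 249 in IDPN, and 6 were called downregulated, beside 3.42% of all genes. The 12 supporting cell genes summed to 5116 to 6030 and 4310 to 4727 TPM, with 1 called downregulated (Gjb6), beside the same 3.42%.

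Other lists separated the groups on 1 scale alone. TPM scales each library to a fixed total, and scaling by total counts raised the median log2-Fold_Change of all genes tested from 0.02 to 0.27. On the TPM scale the stromal genes (212 to 292 in Control, 355 to 476 in IDPN), macrophage genes (56.6 to 80.6 and 92.3 to 129) and erythroid genes (956 to 2156 and 2811 to 3772) lay higher in every IDPN library. Their summed normalized counts overlapped, at 21560 to 40454 and 37453 to 40067 for stroma, 2144 to 3023 and 2580 to 3795 for macrophages, and 16167 to 36635 and 34689 to 49091 for the erythroid list. DESeq2 called 1 of 8 stromal genes (Postn), 0 of 10 macrophage genes and 4 of 5 erythroid genes upregulated, beside 2.32% of all genes. The edgeR test called none of them, beside 1.02%. The neuronal and axonal list overlapped in TPM (112 to 185 and 140 to 181) but was lower in IDPN as normalized counts (6521 to 7322 and 4799 to 5182). Oligodendrocyte genes (32.4 to 53.4 and 38.7 to 50.3 TPM), dark cell genes (720 to 860 and 774 to 1163) and endothelial genes (122 to 242 and 163 to 295) overlapped on both scales. The part of these cell types in the rise of Sox10 was not tested.

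Among the 10 genes whose pattern over the 6 libraries was most like that of Mbp, Mag and Prx together, of 11763 genes with a mean of at least 100 normalized counts, were Ppwd1 (r = 0.99), Wwp2, Slco1a4, Erc2, Etfdh, Tmem56, Ndrg1 (r = 0.97), Gm10273 and Ispd (r = 0.96). Their size of change differed: the highest library was 1.12 times the lowest for Tmem56 and 2.75 times for Ndrg1. Mutations of Ndrg1 cause a demyelinating neuropathy. It had normalized counts of 34685, 19143 and 18060 for Control, against 17899, 16778 and 12623 for IDPN, with Control 1 highest. When values were centred within each group, 5 of the 10 stayed among the 10 most alike (Ppwd1, Wwp2, Slco1a4, Erc2 and Tmem56). Control 1 was the highest library for each of these 5. Centring leaves that excess in place, so it could not show likeness apart from Control 1.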

How the data were processed

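Vestibular epithelium (utricles and cristae) of 3 Control and 3 IDPN mice was sequenced from libraries made by a SMART-seq2 protocol that carries no molecular identifiers, so counting error alone understates the true error. The authors aligned the reads to GRCm38 with STAR 2.5.3a and quantified genes with RSEM (version 2.3.0 per the submitters' notes) on the GENCODE M15 annotation. The deposited values are RSEM estimated counts (expected counts), unnormalized and given as whole numbers; RSEM splits reads that match several genes.

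The main test was DESeq2's Wald test (version 1.42.0 in R 4.3.3), fitted on all genes without covariates and with its default size factors, since the study's methods name DESeq2. A gene was called when the Benjamini-Hochberg Padj over all genes was under 0.05 and the fold change over 1.5 in either direction. Intervals are the estimate ± 1.96 SE. The edgeR quasi-likelihood test (edgeR 4.0.16), total-count and TMM scaling, a filter of at least 10 counts in 3 libraries, both DESeq2 filters off, protein-coding genes alone, and each library omitted once were alternatives. On simulated counts for 16418 genes, of which 200 were changed 4-fold, both tools recovered 98.5%, and 15.1% of DESeq2 and 8.37% of edgeR calls were false. Sums and ratios were compared by two-sided exact permutation tests over libraries. TPM was computed from merged exon lengths of GENCODE M21 on GRCm38, found for 99.6% of the genes. Likeness was Pearson's r of log2(normalized count + 1).

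The members and lists were chosen with earlier results of these data known. Text names all 7 members, every called gene of the lists, a fixed set (Egr2, Pou3f1, Erbb3, Gjb1, Drp2, S100b, Ngfr and Ugt8a), defining markers and the 10 genes most like Mbp, Mag and Prx, apart from genes that are not reported here; Foxd3, and Nab2, Jun, Nrg1 and Ermn in the closing section, were named after their values were seen. Ratios of Sox10, the transcript shares, pair correlations without Control 1, the Schwann core without S100b and list sums of normalized counts were chosen after seeing the data. Each library is 1 animal.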

Additional observations from a re-analysis of the deposited data

How the results depend on the processing

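Sox10 was called upregulated under all 13 alternatives, and 0 of the 7 genes were called downregulated except without Control 2 (1 gene) or Control 3 (3 genes), so that leaving out 1 library gave 0 to 3. Values that turned with total-count scaling were those of Prx (0.047), Cnp (0.19), Drp2 (0.030) and Ugt8a (0.053). With 1 library left out, log2-Fold_Changes of both signs were given by Prx (−0.39 to 0.088), Cnp (−0.25 to 0.17), Ngfr (−0.20 to 0.77) and Ugt8a (−0.47 to 0.017). Among the other myelination genes, 1 was called upregulated and 4 downregulated, against 0 and 2 with edgeR, 3 and 0 with total-count scaling, and 0 to 1 and 1 to 4 with 1 library left out. The call of Gjc3 was lost without Control 2, IDPN 1 or IDPN 3, those of Sox8 and Fabp7 without Control 1 and others, and that of Utrn fell under the fold threshold without IDPN 2 (−0.58) or IDPN 3 (−0.56).

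The log2 ratio to the neuronal and axonal list differed by −0.009 between groups and by −0.22 to 0.28 with 1 library left out, and by 0.045 with all 7 genes summed. That to the core Schwann genes turned to −0.21 without S100b. The cause of these changes was not tested. No paired analysis was possible because the labels give no replicate number that Control and IDPN animals share. The highest library total was 1.08 times the lowest and every one of the 7 genes had at least 464 counts in each library.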

Other observations

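IDPN 2 stood apart in regulators close to Egr2. Nab2, a co-regulator that binds Egr2, had normalized counts of 307, 259 and 264 for Control, against 280, 4554 and 322 for IDPN, and DESeq2 gave it no adjusted p. Jun, a factor of repair Schwann cells, had 374, 362 and 355 for Control, against 357, 2842 and 510 for IDPN (DESeq2 Padj = 0.287). Among the IDPN libraries, IDPN 2 lay between the others for Mbp, Pmp22 and Prx and was highest for Sox10, Mal, Cnp and Mag.

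Nrg1, which encodes the neuregulin ligand that axons present to Schwann cells, had normalized counts of 36.4, 39.2 and 35.6 for Control, against 14.1, 9.04 and 12.1 for IDPN, without overlap and just outside the threshold (log2-Fold_Change −1.65 ± 0.56 SE, DESeq2 Padj = 0.0510).

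Ermn (ermin), known from oligodendrocytes, had normalized counts of 0, 1.15 and 0 for Control, against 23.2, 15.1 and 27.1 for IDPN and was called upregulated (DESeq2 Padj = 0.00180), while Mog, Opalin, Olig2 and Klk6 stayed at 0.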
